A study of Mus musculus with 12 samples.

Results

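Cholesterol and fatty acid synthesis was examined through 33 genes, taken by symbol from a list of pathway genes, among the 38924 Ensembl genes counted in each tumor. They comprise 5 regulators, 19 genes of the sterol arm (7 of the mevalonate steps, 11 of the steps after farnesyl diphosphate and the sterol carrier gene Stard4) and 9 genes of the fatty acid arm. All 33 were among the 16645 genes that passed the filter on low counts, with between 24 and 16149 counts per gene and tumor.

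RNA had been sequenced from 12 pancreatic neuroendocrine tumors (PanNETs, here insulinomas) of C57Bl6 RIP1TAG2 mice, in which the insulin promoter drives a viral oncogene in pancreatic beta cells. The controls were 4 tumors of saline-treated mice, 4 tumors came from mice given sunitinib, which blocks receptors for VEGF and PDGF, and 4 came from mice given rapamycin, an mTOR inhibitor, plus sunitinib (R+S). All groups were treated for 4 days from the age of 15.5 weeks, as the labels state. No group received rapamycin alone, so the R+S group was compared with sunitinib for the addition of rapamycin and with controls for the combination, and these comparisons share samples.

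Cells make cholesterol from acetyl-CoA through mevalonate, farnesyl diphosphate, squalene and lanosterol, and they make fatty acids from the same precursor through malonyl-CoA. Both arms are transcribed under the SREBP factors, which SCAP escorts from the endoplasmic reticulum when sterols are scarce and which INSIG proteins hold back when sterols are plentiful. SREBP2, the product of Srebf2, is known mainly for the sterol arm and SREBP1, the product of Srebf1, for the fatty acid arm. mTOR signaling is known to promote SREBP activity, which gives the comparison of R+S with sunitinib its question.

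Gene counts summed to 31872342 to 44215054 per tumor. Levels are given as CPM, a gene's reads scaled to library size. Of the beta-cell markers, 0 of 12 passed the threshold in any comparison, and their summed level was at least 41120 CPM in every control and R+S tumor. Sunitinib tumor 6 stood apart: its beta-cell markers summed to 4849 CPM, Ins2 was at 784 CPM against 10610 to 43800 CPM in the other 11 tumors, and its correlation of log2 CPM with the other sunitinib tumors was 0.872 to 0.895, against 0.957 to 0.991 for the other pairs within groups. It was the highest or lowest of the 12 tumors for 15 of the 33 genes, followed by sunitinib tumor 12 with 14. Of 28 pancreatic acinar markers, 27 were higher in each treated group than in controls, with summed levels of 41.8 to 146.5 CPM in controls, 13870 to 49700 CPM with sunitinib and 3652 to 19860 CPM with R+S. Endothelial markers fell in both treated groups (10 of 12). Between these groups, 8 of the 12 were higher with R+S than with sunitinib, with summed levels of 146.4 to 191.4 CPM against 66.2 to 112.6 CPM, and their part in the results of that comparison was not tested. The adipocyte markers, from a cell type rich in lipid synthesis, summed to 0.497 to 6.10 CPM over all tumors. The titles carry a prefix (S409 for all controls, others for treated tumors) that is not explained and that never spans groups, so prefix and treatment cannot be told apart. Nothing in the labels says whether the tumors of a group came from separate mice, so p-values measure the spread between tumors only. In bulk RNA, fewer cells of a type and less RNA per cell cannot be told apart.

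The bases just upstream of 4 genes are printed to show letters that match promoter elements known for this pathway. Of the 4, only Hmgcs1 held the sterol regulatory element, and whether any match acts in these tumors was not tested. Windows from RefSeq (GRCm38.p6), 250 bases before to 50 after an annotated start, existed for 26 of the 33 genes (34 windows). The letters searched on both strands included TCACNCCAC for the sterol regulatory element bound by SREBP and CCAAT for the box bound by NF-Y, a known partner of SREBP. The others were GGGCGG for the GC box bound by Sp1 and CACGTG for the E-box. CCAAT occurred in 14 of 18 sterol-arm windows (77.8%), in 3 of 6 fatty acid windows (50%) and in 37.4% of all 32851 windows. GGGCGG occurred in 83.3% of the sterol windows, 33.3% of the fatty acid windows and 35.7% of all. For CACGTG these shares were 16.7%, 0% and 7.15%. The element TCACNCCAC occurred in 1.24% of all windows and in 1 of the 34, that of Hmgcs1, with its first base 137 bases before the start (position -137). Shown 5′ to 3′ on the gene's strand, without bases inside annotated exons, are the stretches of Srebf2 (chr15:82147019-82147180, plus strand), Nsdhl (chrX:72918412-72918520, plus strand), Ebp (chrX:8193513-8193762, minus strand) and Hmgcs1 (chr13:119690101-119690350, plus strand). Capitals mark CCAAT or its reverse complement and, in Hmgcs1, also TCACNCCAC. The first 3 genes were lower with R+S past the threshold in at least 1 comparison, and Hmgcs1 holds the only match of the sterol element. Acat2, Cyp51 and Fdps were also lower past it and are not printed. The window of Acat2 held no CCAAT, the CCAAT of Cyp51 lay inside the annotated gene, and Fdps had no window.
Srebf2: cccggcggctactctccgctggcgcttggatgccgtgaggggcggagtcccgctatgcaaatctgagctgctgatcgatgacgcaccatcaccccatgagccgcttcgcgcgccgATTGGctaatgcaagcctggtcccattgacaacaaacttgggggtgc
Nsdhl: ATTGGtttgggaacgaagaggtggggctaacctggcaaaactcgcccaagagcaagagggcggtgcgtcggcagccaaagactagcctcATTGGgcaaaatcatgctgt
Ebp: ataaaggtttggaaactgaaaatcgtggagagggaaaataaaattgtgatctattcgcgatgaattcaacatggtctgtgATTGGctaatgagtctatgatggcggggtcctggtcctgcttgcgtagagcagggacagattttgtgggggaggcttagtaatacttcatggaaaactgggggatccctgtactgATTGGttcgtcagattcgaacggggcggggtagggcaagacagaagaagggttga
Hmgcs1: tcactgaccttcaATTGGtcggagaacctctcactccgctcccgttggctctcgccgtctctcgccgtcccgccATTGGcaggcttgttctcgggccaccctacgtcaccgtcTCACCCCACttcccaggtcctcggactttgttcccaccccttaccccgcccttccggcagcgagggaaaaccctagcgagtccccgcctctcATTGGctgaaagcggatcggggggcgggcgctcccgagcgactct

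With R+S, 18 of the 19 sterol-arm genes had a lower fitted level than in controls, and Srebf2, the mevalonate enzyme gene Fdps and the post-squalene enzyme gene Nsdhl fell past the threshold (edgeR quasi-likelihood F-test, adjusted p under 0.05). Adding rapamycin to sunitinib likewise gave lower fitted levels for 18 of 19, and Acat2, Fdps, Cyp51 and Ebp fell. With sunitinib alone, 9 of the 19 fitted values were below and 10 above those of controls, with 0 past the threshold. No fatty acid gene passed it in any of the 3 comparisons, though DESeq2, an alternative test, called Scd2 lower with R+S against both other groups. By the edgeR test, 6 of the 33 genes in total passed in at least 1 comparison, all downward, and only Fdps passed in 2.

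Against controls, 3 of the 33 genes fell with R+S and 0 rose, where 2.61% of all tested genes fell and 1.55% rose. Between R+S and sunitinib, 4 fell and 0 rose, against 4.58% and 2.63% of all genes. Between sunitinib and control, 0 rose and 0 fell with edgeR, against 1.93% and 2.55% of all genes. An unadjusted edgeR p under 0.05 was found for 4 of the 33, against 3247 of all 16645 genes. DESeq2 called 1 of the 33, Srebf2, lower, where it called 719 of all 16645 genes lower and 758 higher. A further description is whether the 4 tumors of a group all lay below the 4 of the other. This held for 15 of 33 genes (45.5%) between R+S and controls, against 11.9% of all genes, and for 7 of 33 (21.2%) between R+S and sunitinib, against 9.73%. Between sunitinib and control it held for 1 gene, Srebf2, against 5.76% of all genes.

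**Figure D1:**
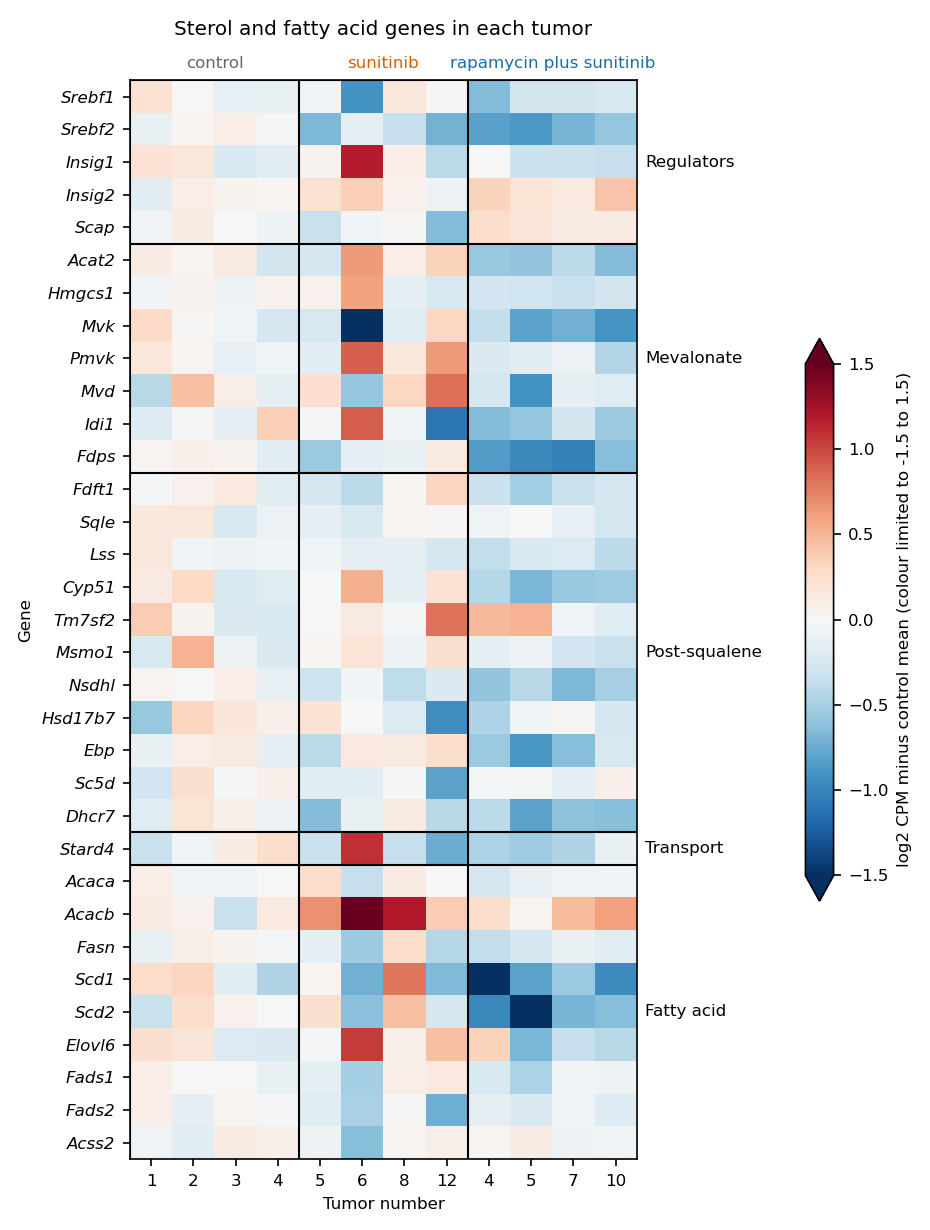
Log2 CPM of each of the 33 genes (rows, grouped by role) in each of the 12 tumors (columns) minus the gene's mean over the 4 controls; blue is lower and red higher, with colours limited to differences of -1.5 to 1.5. The mevalonate rows are blue in nearly all R+S tumors, and sunitinib tumor 6 holds the deepest red (Acacb) and the deepest blue (Mvk) of its group.

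**Figure D2:**
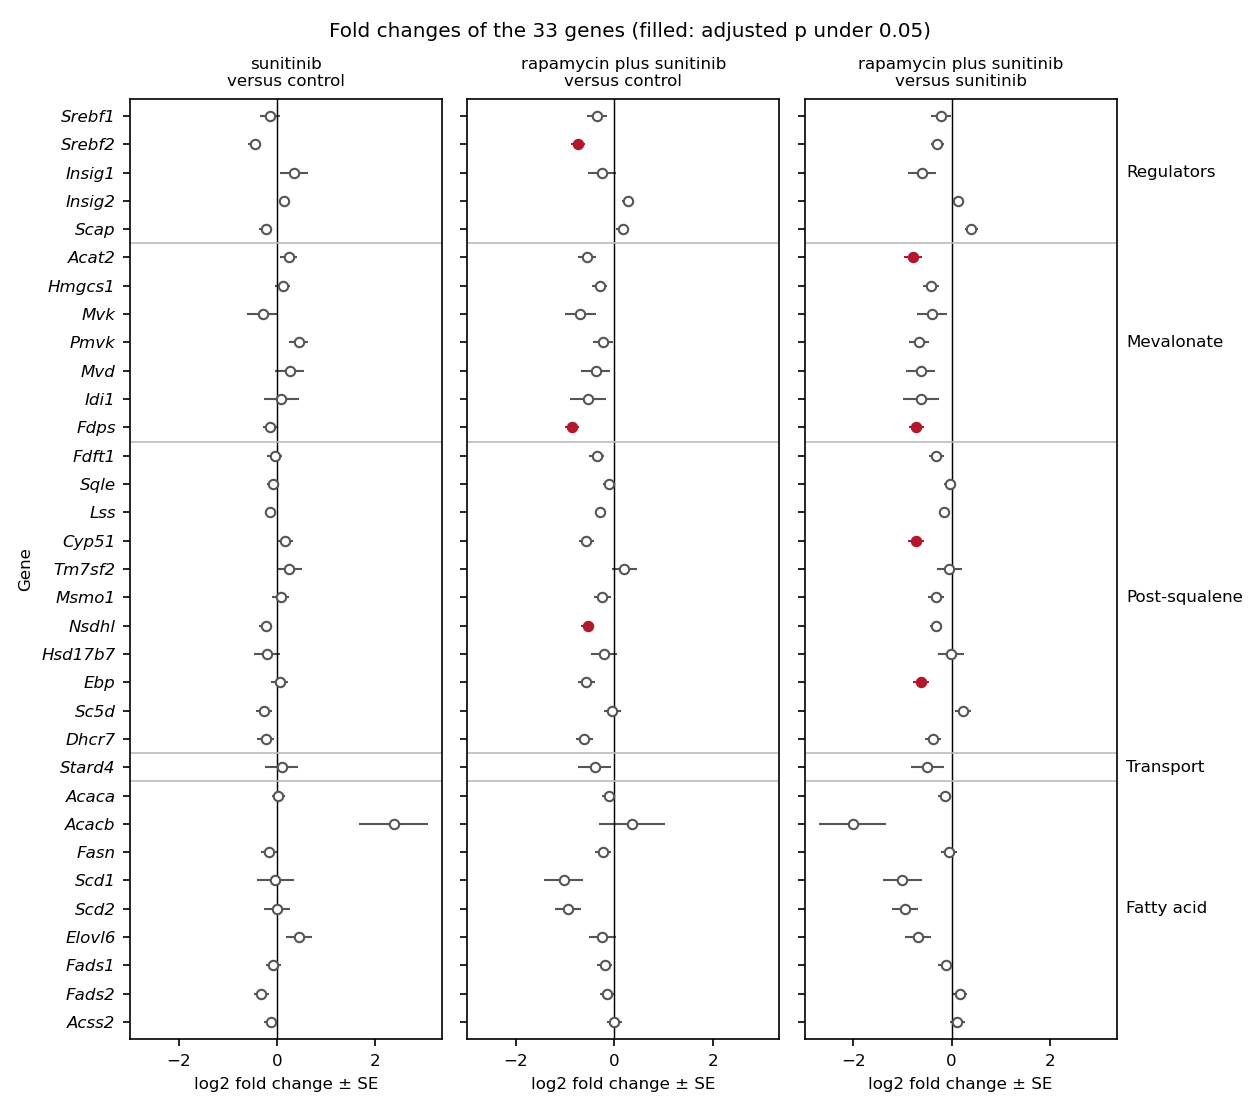
Log2 fold change with its standard error (x axis) for each gene (y axis) in the 3 comparisons, filled red where the adjusted p is under 0.05. No filled point lies in the sunitinib comparison, 3 lie below 0 for R+S against control and 4 for R+S against sunitinib.

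Among the regulators, Srebf2 fell with R+S. It was at 145, 159, 167 and 155 CPM in control tumors 1 to 4, at 97.9, 142, 123 and 95.8 CPM in sunitinib tumors 5, 6, 8 and 12, and at 88.6, 86.2, 96.2 and 105 CPM in R+S tumors 4, 5, 7 and 10. Every treated tumor lay below every control, while the treated groups overlapped. The log2 fold change of R+S against control was -0.74 ± 0.13 (SE; edgeR adjusted p = 0.00950, 4 against 4 tumors), a level that fell by 40.1%. For sunitinib against control it was -0.45 ± 0.13 (edgeR adjusted p = 0.0871), and without sunitinib tumor 6 it was -0.57 and passed the threshold (edgeR adjusted p = 0.0152). Without sunitinib tumor 5 or 12 it was -0.37 and -0.38 and did not pass (edgeR adjusted p = 0.113 and 0.154). For R+S against sunitinib it was -0.29 ± 0.13 (edgeR adjusted p = 0.168).

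Srebf1 had 129.8, 111, 101 and 103 CPM in the controls, 106, 59.4, 124 and 112 CPM with sunitinib, and 70.5, 91.5, 91.2 and 94.0 CPM with R+S. All R+S tumors were below all controls, yet the fold change (-0.36 ± 0.20 on the log2 scale, edgeR adjusted p = 0.340) did not pass the threshold. Insig1, itself a well-known SREBP target, was at 42.4, 41.0, 31.1 and 32.6 CPM in controls, at 37.8, 82.3, 39.2 and 27.5 CPM with sunitinib and at 36.6, 29.2, 29.1 and 28.6 CPM with R+S. The groups overlapped, and the high sunitinib value came from tumor 6. Insig2, its less sterol-responsive relative, was at 52.2, 62.6, 60.7 and 59.6 CPM in controls, at 68.5, 74.9, 61.6 and 55.4 CPM with sunitinib and at 73.9, 67.5, 64.9 and 79.0 CPM with R+S. The 4 R+S tumors lay above the 4 controls by 0.28 ± 0.12 on the log2 scale (edgeR adjusted p = 0.209). Scap was at 93.6, 103.8, 96.9 and 91.0 CPM in controls, at 76.6, 93.6, 97.2 and 61.5 CPM with sunitinib and at 116, 109.7, 103.9 and 104.3 CPM with R+S. Its R+S tumors lay above all tumors of both other groups, narrowly for the controls, with a log2 difference of 0.40 ± 0.13 from sunitinib that missed the threshold (edgeR adjusted p = 0.0804). Insig2 and Scap thus had higher fitted values with R+S than in controls, opposite in sign to Srebf1, Srebf2 and Insig1, and neither passed the test. They were the 2 of the 33 genes with all R+S tumors above all controls, which held for 11.6% of all genes. Between R+S and sunitinib this held for 1 of the 33, Scap, and for 8.9% of all genes. A noncoding transcript overlaps 13.2% of the Scap exons on the other strand, and the strand setting of the counting is not given in the sources used here.

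In the mevalonate steps, which turn acetyl-CoA into farnesyl diphosphate, all 7 genes had lower fitted levels with R+S than in either other group. Fdps, which makes farnesyl diphosphate, the branch point for sterols and protein prenylation, gave 48.5, 49.7, 49.1 and 42.1 CPM in controls. It gave 32.2, 42.7, 44.1 and 52.0 CPM with sunitinib and 26.5, 24.1, 23.4 and 30.2 CPM with R+S. The highest R+S tumor was below the lowest tumor of both other groups, whereas sunitinib and control overlapped. Its log2 fold change was -0.86 ± 0.15 against control (edgeR adjusted p = 0.00742), a level that fell by 45.0%, and -0.72 ± 0.15 against sunitinib (edgeR adjusted p = 0.0277). Of the 50-base stretches in Fdps transcripts, 26.2% occur in transcripts of other genes. Part of its reads may therefore not have been assigned, which was not measured.

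Acat2, a cytosolic thiolase that joins acetyl-CoA units at the start of the route, was at 23.2, 22.2, 23.7 and 17.8 CPM in controls, at 17.96, 33.6, 23.2 and 27.3 CPM with sunitinib and at 14.5, 14.3, 16.4 and 13.7 CPM with R+S. All R+S tumors were again the lowest. R+S differed on the log2 scale by -0.79 ± 0.18 against sunitinib (edgeR adjusted p = 0.0328) and -0.56 ± 0.18 against control (edgeR adjusted p = 0.111). Acat2 shares 39.1% of its 50-base stretches with Acat3, so its counts are uncertain.

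The other 5 mevalonate genes did not pass the test in any comparison. Against control, the 6 genes other than Fdps ran from -0.69 for Mvk, mevalonate kinase, to -0.23 for Pmvk, the next kinase, with edgeR adjusted p of 0.111 or more. Hmgcs1, the HMG-CoA synthase whose promoter is printed above, showed a tight R+S group, 43.4 to 45.3 CPM, below 51.8 to 57.1 CPM in controls and 46.8 to 83.1 CPM with sunitinib. Its fold change was -0.30 ± 0.16 against control and -0.41 ± 0.16 against sunitinib on the log2 scale (edgeR adjusted p = 0.312 and 0.111). Mvd, the mevalonate diphosphate decarboxylase gene, overlapped between groups in every comparison. Idi1, the isomerase, was scarce, at 0.770 to 3.21 CPM over all tumors, and 17.7% of its 50-base stretches occur in other genes.

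**Figure D3:**
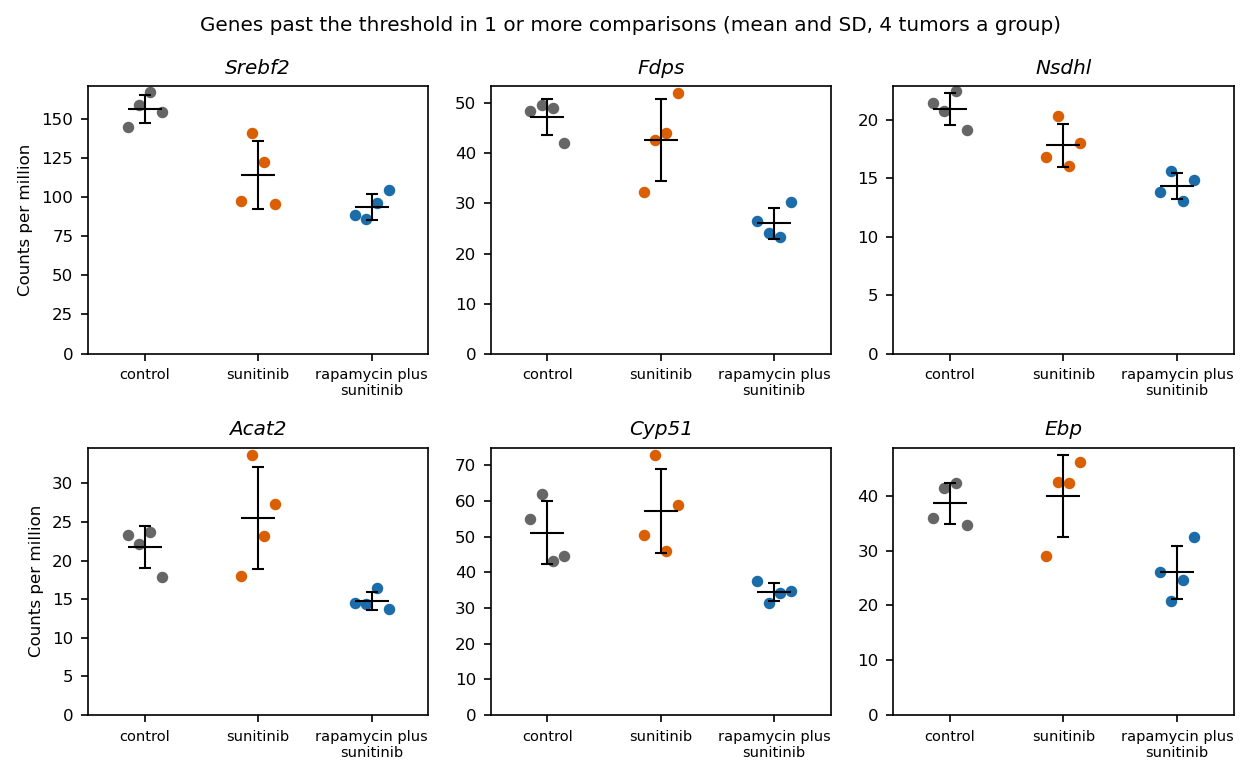
CPM (y axis, from 0) of the 6 genes that passed the threshold in at least 1 comparison, for each tumor (points) by treatment group (x axis), with the group mean and SD of 4 tumors in black. R+S tumors lie below all controls in all 6 panels, and the sunitinib tumors spread widely.

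After farnesyl diphosphate, 3 of the 11 enzyme genes passed the test in 1 comparison each. Cyp51, the lanosterol demethylase, was at 54.9, 62.0, 43.1 and 44.5 CPM in controls, at 50.6, 72.9, 46.1 and 58.7 CPM with sunitinib and at 37.7, 31.5, 34.1 and 34.9 CPM with R+S. R+S tumors did not overlap with either group. On the log2 scale the difference was -0.72 ± 0.16 against sunitinib (edgeR adjusted p = 0.0309) and -0.57 ± 0.16 against control (edgeR adjusted p = 0.0729). Exons of Akap9 overlap 3.76% of the Cyp51 exons on the other strand.

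Nsdhl, a dehydrogenase that acts in removing methyl groups from sterols, was at 21.5, 20.8, 22.4 and 19.2 CPM in controls, at 16.9, 20.3, 16.1 and 18.03 CPM with sunitinib and at 13.9, 15.7, 13.1 and 14.9 CPM with R+S. Its R+S values lay under all others. The log2 fold change was -0.55 ± 0.12 against control (edgeR adjusted p = 0.0334) and -0.31 ± 0.12 against sunitinib (edgeR adjusted p = 0.121). Ebp, the sterol isomerase whose upstream stretch is printed above, was at 35.9, 41.3, 42.4 and 34.7 CPM in controls, at 28.9, 42.4, 42.2 and 46.1 CPM with sunitinib and at 26.0, 20.9, 24.7 and 32.4 CPM with R+S. R+S and control did not overlap, while sunitinib tumor 5 fell below R+S tumor 10. The log2 fold change was -0.62 ± 0.17 against sunitinib (edgeR adjusted p = 0.0493) and -0.57 ± 0.17 against control (edgeR adjusted p = 0.0828).

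For R+S against control, the 10 genes after farnesyl diphosphate that did not pass ran from -0.61 to 0.20 on the log2 scale. The lowest was Dhcr7, which reduces dehydrocholesterol to cholesterol, at -0.61 ± 0.17 (edgeR adjusted p = 0.0670), with 23.7 to 31.4 CPM in R+S tumors below 36.2 to 47.5 CPM in controls. Fdft1, the squalene synthase, and Lss, which closes the ring to lanosterol, were also lower in every R+S tumor than in every control, with values of -0.36 ± 0.15 and -0.30 ± 0.10 (edgeR adjusted p = 0.211 and 0.107). Exons of Ctsb overlap 18.3% of the Fdft1 exons on the other strand. In contrast, Sqle, the squalene epoxidase and a known control point of the pathway, stood at 80.6 to 97.2 CPM with R+S and 82.1 to 108.6 CPM in controls (-0.12 ± 0.12, edgeR adjusted p = 0.617). Sc5d, a late desaturase, was at -0.04 ± 0.17. Msmo1, a methyl sterol oxidase, was at -0.24 ± 0.17 and Hsd17b7, a ketosteroid reductase of the same step, at -0.22 ± 0.26. Tm7sf2, a sterol reductase, was the 1 sterol gene with a positive value (0.20 ± 0.25), and 12.1% of its exons overlap Vps51 on the same strand. Stard4, which carries sterols between membranes, was at -0.40 ± 0.34, with 149 CPM in sunitinib tumor 6 against 41.3 to 83.7 CPM in all other tumors.

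The fatty acid arm held the largest fitted decreases without a call in the edgeR fit of all 12 tumors. Scd2, the stearoyl-CoA desaturase most abundant here, was at 247, 374, 325 and 313 CPM in controls, at 367, 201, 426 and 259 CPM with sunitinib and at 159.6, 99.7, 193 and 199 CPM with R+S. All R+S tumors were below all others. The log2 fold change was -0.95 ± 0.26 against control (edgeR adjusted p = 0.0664) and -0.94 ± 0.26 against sunitinib (edgeR adjusted p = 0.0522). It passed the threshold in both without sunitinib tumor 6 (edgeR adjusted p = 0.0265 and 0.0276) and missed it in both without sunitinib tumor 5 (edgeR adjusted p = 0.0740 and 0.0604) or 12 (0.0599 and 0.0671). DESeq2 called Scd2 lower in both comparisons (DESeq2 adjusted p = 0.0109 and 0.00826), as did the fit with summed prefixes (edgeR adjusted p = 0.02425 and 0.0473). With only the 8 tumors compared, it passed against control and missed against sunitinib (edgeR adjusted p = 0.0220 and 0.127). With the acinar marker score in the fit, Scd2 was at -0.09 against control and -1.12 against sunitinib (edgeR adjusted p = 0.9997 and 0.0960). That score does not overlap between controls and treated tumors, so against control it can hardly be separated from treatment. Scd1, the paralog that dominates in liver, gave 10.2 to 17.5 CPM in controls, 8.43 to 24.4 CPM with sunitinib and 3.38 to 9.44 CPM with R+S, with log2 fold changes of -1.03 ± 0.39 against control and -0.9985 ± 0.39 against sunitinib (edgeR adjusted p = 0.163 and 0.113).

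Among the genes that make and elongate the chain, 0 passed the test. Fasn, the fatty acid synthase, was at 277 to 321 CPM in controls, 207 to 363 CPM with sunitinib and 232 to 281 CPM with R+S (-0.23 ± 0.16 against control, edgeR adjusted p = 0.468). Acaca, the cytosolic acetyl-CoA carboxylase, stood at -0.12 ± 0.13 against control, and 30.4% of its 50-base stretches occur in other genes. Acss2, which makes acetyl-CoA from acetate, was at -0.0037 ± 0.15. Elovl6, an elongase, was at -0.24 ± 0.27 against control and -0.68 ± 0.27 against sunitinib (edgeR adjusted p = 0.651 and 0.117). Of the desaturases that make polyunsaturated fatty acids, Fads1 was at -0.20 ± 0.15 and Fads2 at -0.15 ± 0.15. Acacb, the carboxylase isoform tied to control of fatty acid oxidation, was at 38.2 CPM in sunitinib tumor 6 and at 1.93 to 5.67 CPM in the other 11 tumors. Its log2 fold change of 2.37 ± 0.70 for sunitinib against control (edgeR adjusted p = 0.0889) carries that tumor, and without it the value was 0.80 (edgeR adjusted p = 0.102). With the acinar marker score in the fit it was -0.73 (edgeR adjusted p = 0.9999). Between R+S and sunitinib, Acacb was at -2.01 ± 0.69 (edgeR adjusted p = 0.0833) with tumor 6 and at -0.44 (edgeR adjusted p = 0.241) without it. In the comparison of sunitinib with control it was called higher when sunitinib tumor 5 or 12 was left out (2.66 and 2.69, edgeR adjusted p = 0.0477 and 0.0474).

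The arms were set side by side by their medians, without a test, since the lists were chosen with results known. For R+S against control the median log2 fold change was -0.38 over the 19 sterol genes and -0.20 over the 9 fatty acid genes, against 0.01 over all tested genes. For R+S against sunitinib the medians were -0.40 and -0.14, against -0.02 over all, and without sunitinib tumor 6 they were -0.28 and -0.25. For sunitinib against control they were 0.05 and -0.03, against 0.03. All R+S tumors were below all controls for 11 of the sterol genes (57.9%) and for 2 of the 9 fatty acid genes, Scd1 and Scd2. Within the sterol arm the mevalonate genes had the lower medians, -0.54 and -0.63, against -0.30 and -0.31 for the genes after farnesyl diphosphate.

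Averaged within each tumor as the mean difference from the control mean, the sterol arm was at -0.34, -0.42, -0.37 and -0.38 in R+S tumors 4, 5, 7 and 10 on the log2 scale. It ranged from -0.16 to 0.09 in sunitinib tumors and from -0.07 to 0.13 in controls. The R+S tumors formed a narrow band, -0.38 ± 0.03 (SD, n = 4), below every other tumor. The fatty acid arm was at -0.37, -0.45, -0.16 and -0.22 in the same R+S tumors, from -0.11 to 0.34 with sunitinib and from -0.07 to 0.06 in controls. Its R+S mean of -0.30 ± 0.13 (SD, n = 4) was also below every other tumor. Scd1 and Scd2 had the largest decreases behind this mean, with fitted values of -1.03 and -0.95 against control. The other 7 fatty acid genes ran from -0.24 to 0.36. The sterol average minus the fatty acid average was 0.03, 0.03, -0.21 and -0.16 in the 4 R+S tumors, a range that overlapped with controls (-0.10 to 0.07) and sunitinib (-0.39 to 0.09). A difference between the arms with R+S was therefore not apparent in these averages, but the fatty acid average leaned on Scd1 and Scd2. The difference was not tested, and 0 genes called in the fatty acid arm against 5 in the sterol arm do not show it.

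**Figure D4:**
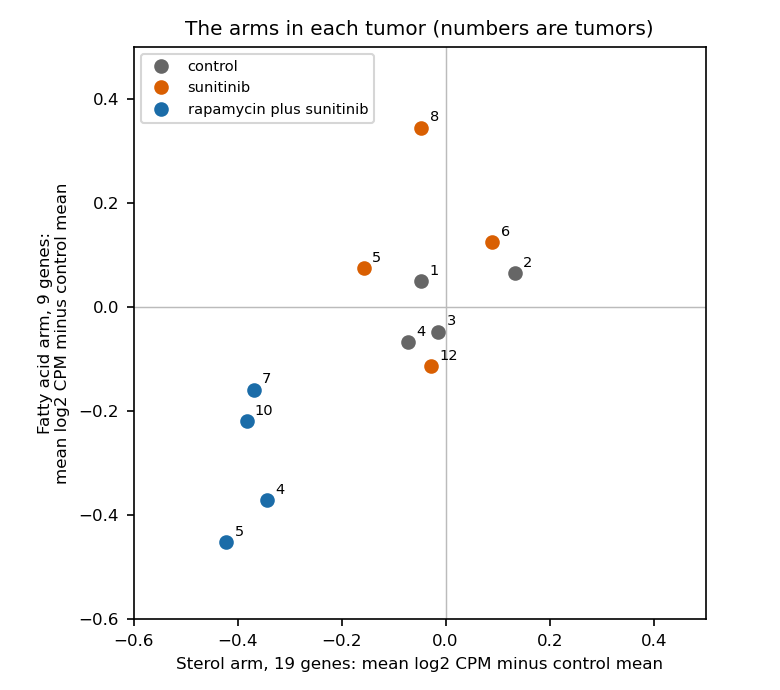
Mean log2 CPM minus control mean over the 19 sterol genes (x axis) and the 9 fatty acid genes (y axis) in each tumor, coloured by group and numbered. The 4 R+S tumors sit at the lower left, between -0.42 and -0.34 on the sterol axis and between -0.45 and -0.16 on the fatty acid axis.

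Other genes of the pathway were taken from 2 lists of 20. Of the sterol list (uptake, export, storage and accessory genes), 1 was higher with sunitinib than in controls. This was Tmem97, a known SREBP target that binds sterols, at 18.6 to 28.6 CPM in controls and 35.4 to 58.2 CPM with sunitinib (log2 fold change 0.97 ± 0.18, edgeR adjusted p = 0.00746). This call was lost in 2 of 23 alternative fits, those with an acinar or adipocyte marker score as a covariate, and the first of these gave 0.32. With R+S it was at 15.8 to 20.7 CPM, below sunitinib by -1.31 ± 0.18 (edgeR adjusted p = 0.0143). The call of Tmem97 between R+S and sunitinib was lost in 5 of 23 alternative fits (edgeR adjusted p up to 0.0955). These were the fit of only the 8 tumors, that with the adipocyte score, and those without R+S tumor 4, 5 or 7. Abca1, which exports cholesterol from cells and is known as a target of the sterol-sensing LXR factors, was higher with R+S (312 to 441 CPM) than with sunitinib (66.3 to 255 CPM; 1.31 ± 0.35, edgeR adjusted p = 0.0466), while controls held 134 to 216 CPM. That call was lost in 14 of 23 alternative fits and kept in 2 of the 12 that left out a tumor, those without sunitinib tumor 5 or 6 (edgeR adjusted p up to 0.147 over all 23). In the R+S against control comparison 0 of 20 sterol and 0 of 20 fatty acid genes passed. In the fatty acid list Elovl1, an elongase of very long chains, was lower with R+S (20.7 to 32.7 CPM) than with sunitinib (35.4 to 65.6 CPM; -0.98 ± 0.23, edgeR adjusted p = 0.0328), the 1 call of that list in the 3 comparisons. It was lost in 9 of 23 alternative fits (edgeR adjusted p up to 0.109), among them those without R+S tumor 4, 5 or 7, sunitinib tumor 8 or 12, or control tumor 3.

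By level per kilobase of exon in controls, the order was led by Scd2 (57.6 ± 9.53 CPM per kb, SD, n = 4) and Fads1 (53.4 ± 3.06), which did not differ beyond their spread. They were followed by Fads2 (39.0), Fasn (27.5), Srebf2 (21.8 ± 1.27) and Srebf1 (19.7 ± 2.34), the last 2 again within their spread. Pmvk (19.3) and Sqle (17.6) were the highest sterol enzyme genes, and Idi1 (0.488) and Acacb (0.256) the lowest of the 33.

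The calls differed in how far they depended on single tumors. Srebf2 and Fdps against control stayed past the threshold with each of the 12 tumors left out, with log2 fold changes of -0.79 to -0.70 and -0.94 to -0.81. Nsdhl against control passed with each sunitinib tumor left out and missed with any control or R+S tumor left out (edgeR adjusted p up to 0.120). Against sunitinib, no gene of the 33 passed without R+S tumor 4, 5 or 7. Of the 23 alternative fits, 16 lost the call of Ebp, 11 that of Acat2, 8 that of Cyp51 and 6 that of Fdps. Of the 12 fits that left out a tumor, 1 kept Ebp, 5 kept Acat2, 7 kept Cyp51 and 9 kept Fdps. Acinar markers, 27 of 28 higher in both treated groups, moved with the comparisons against control. Their mean log2 CPM was -2.75 to 0.97 in controls and 5.74 to 9.36 in treated tumors. These ranges do not overlap, so a fit against control can hardly separate this score from treatment. When this score entered the fit, the log2 fold change against control was -0.88 for Fdps and -0.85 for Srebf2 (edgeR adjusted p = 0.9997 for both genes). In that fit 0 of the 16645 genes passed, with 701 at an unadjusted p under 0.05. The same fit gave -0.76 for Nsdhl, -0.82 for Cyp51 and -0.54 for Acat2 against control. Ebp moved from -0.57 to -0.35 and Scd2 from -0.95 to -0.09 (edgeR adjusted p = 0.9997 for each of these 5 genes). Between R+S and sunitinib, 3 of 28 acinar markers were lower past the threshold, and the median log2 fold change over the 28 was -1.41. There the same covariate left Fdps at -0.71 and Cyp51 at -0.67 (edgeR adjusted p = 0.0756 and 0.103). It left Acat2 at -0.79 and Ebp at -0.66 (edgeR adjusted p = 0.0957 and 0.115). Against control, the part of the acinar markers cannot be told apart from that of treatment, and it was not tested otherwise in any comparison.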

How the data were processed

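RNA of 12 RIP1TAG2 PanNETs was analysed as 3 groups of 4 tumors, taken with the tumor numbers from the sample labels. The authors deposited raw counts per Ensembl gene for each tumor, whole numbers without normalization. The submitters' processing notes name cutadapt 1.2.1, TopHat2 2.0.9 and HTSeq 0.5.4p3; the build is GRCm38, and the annotation release is not given in the sources used here. Reads aligned to several places or on no gene were listed apart and left out. Of 38924 identifiers, 37607 were paired with a symbol through GENCODE M21.

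Genes were filtered by filterByExpr (minimum count 10, minimum total 15), scaled by TMM and compared in edgeR 4.0.16 (R 4.3.3) with its robust quasi-likelihood F-test, in 1 fit of all 12 tumors with 3 contrasts. P-values were adjusted by Benjamini-Hochberg over 16645 genes, with a threshold of 0.05. SE is the absolute log2 fold change divided by the square root of F, CPM use TMM-scaled library sizes, and log2 CPM a prior count of 2. In a two-sided exact permutation test, groups of 4 tumors that did not overlap gave p = 0.0286, the smallest it can give. Scripts were tested on simulated data.

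All 33 members are named, with values in every tumor for regulators and called genes. For other pathway genes, those called are named. Members and lists were chosen with earlier results of these data known. Scd2 was given per tumor after its values were seen. Shared sequence is the percentage of 50-base stretches found in other genes' transcripts. The alternatives were DESeq2 1.42.0, other scalings and filters, 8-tumor fits, summed prefixes, acinar or adipocyte scores as covariates, and each tumor left out.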

Additional observations from a re-analysis of the deposited data

Results flagged for a closer look

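Of 99 groups of 4 tumors (33 genes in 3 groups), 5 (5.05%) held a tumor whose log2 CPM stood far from the other 3, by its gap to the nearest tumor divided by the group's range; chance flags about 1 in 20. Srebf1 was lowest in R+S tumor 4 (gap ratio 0.896), where Insig1 was highest (0.913). Mvd was lowest in R+S tumor 5 (0.835), Fdps in control tumor 4 (0.857) and Acacb in control tumor 3 (0.843). Fdps was the 1 of these genes that passed the test, and its control tumor 4, at 42.1 CPM, was still above all R+S tumors.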

How the results depend on the processing

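Of 276 counts and arm medians under the 23 alternatives, 247 stayed close to the reported value, and no called gene changed direction; 89 of 2484 single-gene values changed sign with neither value called. For sunitinib against control, 1 member was called lower with DESeq2 and with summed prefixes (Srebf2 in both), and leaving out tumors gave 0 to 1 lower and 0 to 1 higher. The sterol median there became -0.15 with the acinar covariate, and the fatty acid median ran from -0.18 (without sunitinib tumor 8) to 0.13 (without tumor 6). For R+S against control, members called lower were 9 with DESeq2, 12 with only the 8 tumors compared, 0 with the acinar covariate, and 2 to 8 with a tumor left out (5 without sunitinib tumor 5, 8 without tumor 6). The sterol median was -0.46 with the adipocyte covariate and -0.50 (without control tumor 1) to -0.32 with a tumor left out. For R+S against sunitinib, DESeq2 called 7 lower and 1 higher (Scap), the fit without a filter 2 lower, and the fits with only the 8 tumors or either covariate 0; leaving out tumors gave 0 to 6, with 0 without R+S tumor 4, 5 or 7, 1 without R+S tumor 10 or sunitinib tumor 12, and 2 without control tumor 2 or 3. The sterol median ran from -0.45 to -0.28 (without sunitinib tumor 6).

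Over all genes the reported counts, higher and lower, were 321 and 424 for sunitinib against control, 258 and 435 for R+S against control, and 438 and 762 for R+S against sunitinib. In that order they were 758 and 719, 689 and 999, and 1220 and 1825 with DESeq2, and 141 and 239, 1083 and 1474, and 0 and 3 with only the 8 tumors. The acinar covariate gave 0 and 0 (770 at an unadjusted p under 0.05), 0 and 0 (701), and 39 and 62; the adipocyte covariate gave 145 and 226, 280 and 462, and 0 and 0 (4193). Requiring 10 counts in every tumor gave 134 and 274 for the first and 145 and 331 for the second, and no filter gave 209 and 292 for the third. With a tumor left out the ranges were 172 to 467 and 257 to 562, 106 to 692 and 185 to 935, and 0 to 1170 and 0 to 1691. The causes were not tested. No paired analysis was made, because nothing in the labels pairs tumors of different groups.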
